A study of Arabidopsis thaliana with 6 samples.

Results

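The genes described here are those whose transcript value was at least halved in roots of the hb13 mutant of Arabidopsis thaliana. They are the entries of the authors' deposited table with a ratio of mutant to wild-type value of at most 0.5, after 34 named loci had been set aside. The ratio was met by 81 of the 708 entries (11.4%), of which 19 were among those loci, so 62 entries remained. These ratios chose the genes and are therefore given as a description, with no test, and nothing is read from the share of 11.4%.

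The table compares 2 genotypes of seedlings in the Col-0 background, wild type and hb13 mutant, with 3 biological replicates of each by their titles. Seedlings of both groups were 5 days old on standard medium and received no treatment, and the labels name neither the hb13 allele nor how many plants went into a library. The labels call the tissue whole root, while their protocol text describes a cut about 0.5 cm from the root tip. Polyadenylated RNA was made into directional libraries and sequenced, and the question is how transcript levels in roots differ between the hb13 mutant and the wild type. The authors' deposited table gives 1 expression value per gene and genotype, so no spread between libraries can be given and each call rests on the authors' q-value, which is at most 0.04996 in every listed entry. How many genes were tested to make the list is not given in the sources used here.

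HB13 (AT1G69780) encodes a homeodomain-leucine zipper class I protein. Transcription factors of this plant-specific class pair through the zipper and bind a short AT-rich site that reads nearly the same on both strands, and many of them respond to water shortage, abscisic acid or light. HB13 itself has been linked to stem growth and to tolerance of cold and drought. The gene is not an entry of the authors' deposited table, so its transcript gives no check of the genotype labels. None of the 46 light-harvesting, photosystem and Rubisco genes searched for as markers of green tissue was listed, so root identity could not be checked from this table either. Among 31 root hair genes, 5 were listed and all 5 were higher in the mutant. Their log2 ratios ran from 0.43 in PRP3 to 1.55 in ZFP5, and the endodermal gene CASP4 was higher by 0.54. Of all 708 listed entries, 394 were higher. A change in the share of a cell type and a change in RNA per cell cannot be told apart in bulk roots, and the part of these markers in the decreases below was not tested.

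The 62 entries spanned a narrow range of change. Their log2 ratios ran from -2.43 to -1.001 with a median of -1.18, and the median transcript was left at 44.2% of its wild-type value. Only CYP82C4 and NAS4 kept less than 0.25 of the wild-type value. A further 5 kept between 0.25 and 0.333, while 28 lay between 0.45 and 0.5. Wild-type values ran from 1.67 to 156 in the authors' deposited table, with a median of 6.89. A mean of both genotype values under 5 was found for 32 of the 62 (51.6%). The scale of these values is not stated, so levels are compared between genotypes within a gene and not between genes. The entries are described below by the roles of their products, in groups formed by hand after the members were seen.

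**Figure D1:**
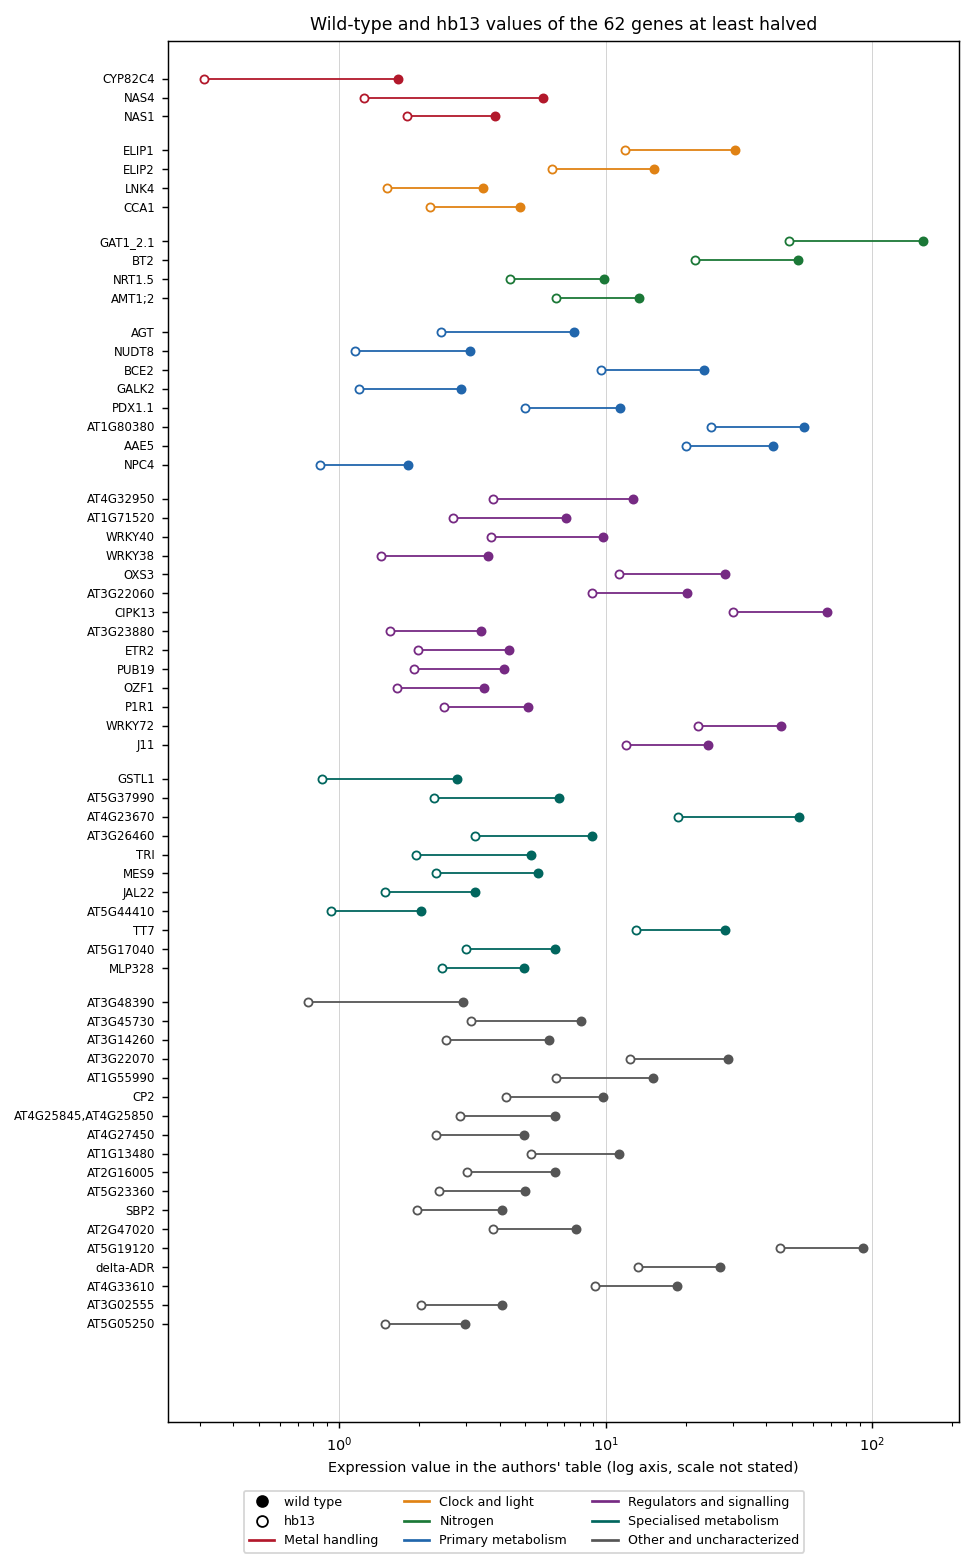
Expression value of each of the 62 entries in the wild type (filled points) and in hb13 (open points) in the authors' deposited table, 1 value per genotype, on a log axis, grouped and coloured by role. The open point lies at no more than 0.5 of the filled point in every entry by the rule, and the longest lines belong to CYP82C4 and NAS4.

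The smallest listed q-value, 0.00246, was held by 42 of the 62 entries (67.7%), against 342 of 708 (48.3%) in the whole table. A q-value under 0.01 was held by 46 (74.2%), against 432 of 708 (61.0%). The q-values come from the contrast that chose the genes, and a larger change more readily gives a low q-value. The entries just inside the ratio of 0.5 were AT5G05250 at 0.49967, AT3G02555 at 0.497, J11 at 0.494, AT4G33610 at 0.493 and MLP328 at 0.492. With the loci set aside left out, the nearest outside were AT1G54740 at 0.504 and the blue light receptor gene PLPB at 0.511. Next came the auxin influx carrier gene LAX2 at 0.513, AT3G10020 at 0.514 and the spindle checkpoint gene BUBR1 at 0.5198. Of the loci set aside, bHLH39 lay nearer to the threshold than AT1G54740, at a log2 ratio of -0.993. Values on both sides of the threshold form an unbroken series.

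**Figure D2:**
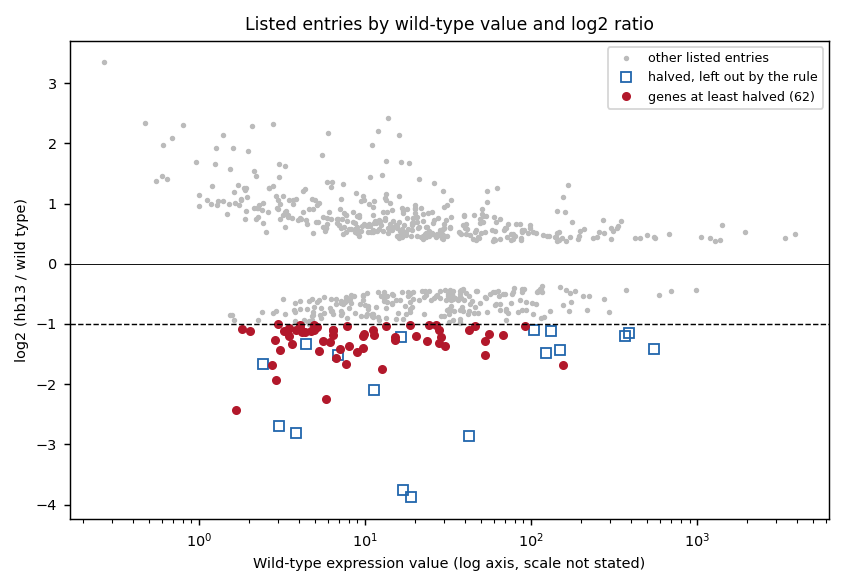
Log2 ratio of hb13 to wild type against the wild-type expression value (log axis) for the 706 listed entries with a nonzero value in both genotypes. The 62 genes (red) lie below the dashed line at -1, from -1.001 to -2.43, and the 17 other genes below the line with a nonzero mutant value (blue squares) are those left out by the rule.

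Genes of metal handling held the 2 lowest ratios, in CYP82C4 and NAS4, while the third gene of the group, NAS1, fell less than the median of the 62. CYP82C4 (AT4G31940), a cytochrome P450 that makes the iron-mobilizing coumarin sideretin, went from 1.67 in the wild type to 0.310 in hb13 in the authors' deposited table. This left 18.6% of the wild-type value, at a deposited q-value of 0.0244. NAS4 (AT1G56430) had 5.82 and 1.23 in the authors' deposited table, so 21.2% was left. Both rested on mutant values near or below 1, where the error of a value without counts is unknown. With 1 added to both values before the ratio, CYP82C4 went from -2.43 to -1.03 on the log2 scale and NAS4 from -2.24 to -1.61, and GAT1_2.1, described below, was then lowest at -1.66.

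NAS4 is a nicotianamine synthase. The enzymes of this family make nicotianamine, a small chelator that carries iron, zinc and copper through the plant. Of the 4 genes of the family, a list written after the members were seen, 3 were listed and all 3 were lower, in a table where 44.4% of all entries were lower. NAS1 (AT5G04950) had 3.83 in the wild type and 1.79 in hb13 in the authors' deposited table, with a q-value of 0.0392. NAS2 (AT5G56080), which fell outside the ratio threshold, had 12.2 and 6.38 in the authors' deposited table, which is -0.93 as a log2 ratio. NAS3 was not listed. The 3 listed genes thus lost between 0.93 and 2.24 on the log2 scale, most in NAS4. Iron uptake genes that fell in the same roots are among the loci set aside.

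The promoters of the genes with the lowest ratios are shown because HB13 is a DNA-binding protein of a class with a known site. Each runs from 250 bases before to 50 bases after the annotated gene start in RefSeq TAIR10.1 and is written 5′ to 3′ on the gene's strand. NAS4 lies on the plus strand at chr1:21136585-21136884, and CYP82C4 on the plus strand at chr4:15451738-15452037. Capitals mark AATNATT, the core of the HD-ZIP site with any base in the middle, so the search does not separate HD-ZIP classes. It occurs 3 times in the NAS4 window and 1 time in that of CYP82C4, where the middle base is C. The whole site, CAATNATTG, occurs in neither. The core is common: it was found in 38.1% of the windows of the genes described here. The share was 42.2% in other listed loci and 33.8% in all protein-coding genes, and a match is not evidence of binding.
NAS4: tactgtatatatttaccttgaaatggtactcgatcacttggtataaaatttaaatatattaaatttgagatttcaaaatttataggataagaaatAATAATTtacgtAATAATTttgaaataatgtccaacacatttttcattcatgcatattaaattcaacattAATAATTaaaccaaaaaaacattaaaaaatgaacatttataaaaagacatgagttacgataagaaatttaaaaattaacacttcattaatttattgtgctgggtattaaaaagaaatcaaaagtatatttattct
CYP82C4: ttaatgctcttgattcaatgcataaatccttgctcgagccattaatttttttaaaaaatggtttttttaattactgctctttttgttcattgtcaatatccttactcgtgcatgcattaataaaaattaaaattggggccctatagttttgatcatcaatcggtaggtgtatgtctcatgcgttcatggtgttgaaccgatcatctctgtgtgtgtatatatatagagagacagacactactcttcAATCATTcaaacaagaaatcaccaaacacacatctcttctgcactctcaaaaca

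The clock-related genes CCA1 and LNK4 and the light-induced genes ELIP1 and ELIP2, put together by hand, kept between 38.9% and 46.1% of their wild-type values. CCA1 (AT2G46830), a morning-expressed MYB-like repressor at the centre of the circadian clock, had 4.76 in the wild type and 2.19 in hb13 in the authors' deposited table. LNK4 (AT5G06980), of the night light-inducible and clock-regulated family, had 3.47 and 1.51 in the authors' deposited table. ELIP1 (AT3G22840) had 30.5 and 11.8 in the authors' deposited table, and its relative ELIP2 (AT4G14690) had 15.2 and 6.30 in the authors' deposited table. The ELIP proteins are early light-inducible members of the chlorophyll-binding family that protect thylakoids. All 4 genes had the smallest listed q-value, 0.00246.

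Few other clock genes were listed. Of 14 core clock genes, a list written after the members were seen, CCA1 and GI were the 2 listed, and both were lower. GI (AT1G22770), a large protein of the evening phase, had 18.2 and 12.6 in the authors' deposited table, which is -0.54 as a log2 ratio. LHY, the closest relative of CCA1, was not listed. Of the 4 LNK genes, LNK1 (AT5G64170) was listed beside LNK4, and the authors' deposited table gives it 13.4 and 8.03. In a separate list of 70 clock and light genes found by name, which does not hold LNK4, LNK1, ELIP1 or ELIP2, 5 were listed and CCA1 was the 1 member of the 62. The others were CDF3 at -0.74, GI, COL5 at -0.43 and BZS1, which was higher at 0.80, so 4 of 5 were lower (80.0%, against 44.4% of all listed entries). The hour of harvest is not given in the labels.

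The promoter windows of CCA1 and ELIP1 are shown because both hold a G-box, CACGTG, the core bound by many bZIP and bHLH factors, marked here in capitals. The windows of LNK4 and ELIP2 hold none. Shares in other loci are given below, and a match is not evidence of binding. CCA1 lies on the plus strand at chr2:19245341-19245640, with the G-box starting 193 bases before the gene start. ELIP1 lies on the minus strand at chr3:8085620-8085919, with the G-box starting 66 bases before the gene start.
CCA1: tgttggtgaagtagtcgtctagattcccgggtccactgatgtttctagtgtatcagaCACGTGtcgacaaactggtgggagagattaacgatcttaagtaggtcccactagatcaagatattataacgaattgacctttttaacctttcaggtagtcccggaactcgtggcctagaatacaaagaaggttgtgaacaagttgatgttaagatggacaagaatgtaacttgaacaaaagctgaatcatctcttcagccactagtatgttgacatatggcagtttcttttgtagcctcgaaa
ELIP1: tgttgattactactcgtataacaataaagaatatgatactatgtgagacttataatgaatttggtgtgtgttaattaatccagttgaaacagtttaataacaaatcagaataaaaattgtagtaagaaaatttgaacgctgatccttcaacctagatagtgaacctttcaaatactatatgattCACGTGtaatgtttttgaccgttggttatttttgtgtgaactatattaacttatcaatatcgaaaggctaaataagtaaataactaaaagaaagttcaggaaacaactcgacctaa

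A group of 4 genes was tied to nitrogen. GAT1_2.1 (AT1G15040), a nitrogen-regulated glutamine amidotransferase-like protein that represses shoot branching, had 156 in the wild type and 48.6 in hb13 in the authors' deposited table, so 31.2% was left. NRT1.5 (AT1G32450), which loads nitrate into the xylem for transport to the shoot, had 9.86 and 4.38 in the authors' deposited table. AMT1;2 (AT1G64780), a high-affinity ammonium transporter of root cortex and endodermis, had 13.3 and 6.48 in the authors' deposited table. BT2 (AT3G48360), a BTB and TAZ domain adaptor tied to sugar, hormone and nitrogen responses, had 52.6 and 21.7 in the authors' deposited table. All 4 had a q-value of 0.00246.

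The 2 transporters act at different places, AMT1;2 in root cortex and endodermis and NRT1.5 at the xylem. AMT1;2 was the 1 ammonium transporter listed out of 6. In a list of 35 nitrate and ammonium genes, 6 were listed, 4 lower (66.7%, against 44.4% of all listed entries) and 2 higher. The lower ones were NRT1.5, AMT1;2 and the loci set aside NRT2.6 and NRT2.3, at log2 ratios of -3.75 and -1.67. The higher ones were the nitrate excretion transporter gene NAXT1 at 0.49 and the nitrate reductase gene NIA1 at 0.77.

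Among enzymes of primary metabolism, 8 members kept between 31.6% and 46.96% of the wild-type value. AGT (AT2G13360), the peroxisomal serine:glyoxylate aminotransferase of photorespiration, had 7.63 in the wild type and 2.41 in hb13 in the authors' deposited table. AT1G80380, the glycerate kinase that catalyses the last step of the same cycle, had 55.5 and 24.8 in the authors' deposited table. They were the only 2 listed of 11 photorespiratory genes, a list written after the members were seen, so the other 9 were not listed in either direction.

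BCE2 (AT3G06850), the acyltransferase subunit of the branched-chain keto acid dehydrogenase, had 23.5 and 9.63 in the authors' deposited table. Of 9 genes of branched-chain amino acid breakdown, a list also written after the members were seen, 3 were listed and all 3 were lower, beside 44.4% of all entries. The others were MCCA at a log2 ratio of -1.22, which is among the loci set aside, and IVD at -0.59. The pathway lets leucine, isoleucine and valine serve as fuel in mitochondria.

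The other 5 enzymes act in unrelated steps. PDX1.1 (AT2G38230), a subunit of the vitamin B6 synthase, had 11.3 and 4.99 in the authors' deposited table. AAE5 (AT5G16370), a peroxisomal acyl activating enzyme, had 42.5 and 19.9 in the authors' deposited table. For these genes, 370 of 1184 and 183 of 2140 exon stretches of 100 bases also occur elsewhere in the genome, at AT2G38210 and AT5G16340, so reads may have been shared and their values are uncertain. GALK2 (AT5G14470), annotated as a GHMP kinase family protein, had 2.86 and 1.18 in the authors' deposited table. NUDT8 (AT5G47240), a nudix hydrolase, had 3.09 and 1.15 in the authors' deposited table. NPC4 (AT3G03530), a phospholipase C that cleaves membrane phospholipids, had 1.81 and 0.850 in the authors' deposited table. No exon stretch of the other members occurred elsewhere in the genome.

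Regulators and signalling proteins formed a group of 14, of which 3 encode WRKY transcription factors, a family that binds W-boxes in defence and stress genes. WRKY40 (AT1G80840), a repressor in immune and abscisic acid responses, had 9.77 in the wild type and 3.70 in hb13 in the authors' deposited table. WRKY38 (AT5G22570), a negative regulator of basal defence, had 3.61 and 1.43 in the authors' deposited table, with a q-value of 0.0113. WRKY72 (AT5G15130), which contributes to basal immunity, had 45.6 and 22.3 in the authors' deposited table.

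The family was found in both directions. Of 67 annotated WRKY genes, 10 were listed, 7 lower (70.0%, against 44.4% of all listed entries) and 3 higher. WRKY22, WRKY54, WRKY26 and WRKY33 were also lower, at log2 ratios from -0.82 to -0.51. WRKY29, WRKY47 and WRKY42 were higher, at 0.61, 0.61 and 0.99. This list was drawn up after the members were seen. A list of 610 defence genes found by name, which holds the same 10 WRKY genes, had 20 listed, 8 lower (40%, against 44.4%) and 12 higher.

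**Figure D3:**
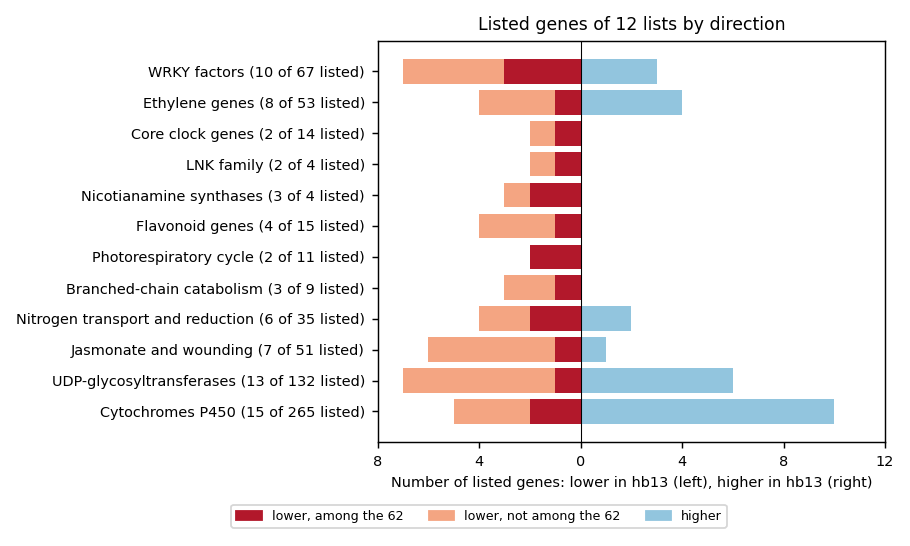
Number of listed genes lower (left, red and orange) and higher (right, blue) in hb13 in 12 gene lists, with dark red for those among the 62. All listed genes of the nicotianamine synthase, core clock, LNK, flavonoid, photorespiratory and branched-chain lists were lower, from 2 to 4 genes each, beside 44.4% of all entries, but these 6 lists were written after the members were seen and each holds genes chosen for being lower, while WRKY, ethylene, nitrogen, jasmonate, UDP-glycosyltransferase and P450 genes went both ways.

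ETR2 (AT3G23150), from the family of 5 ethylene receptors and a repressor of the pathway in the absence of the hormone, had 4.32 in the wild type and 1.97 in hb13 in the authors' deposited table. The related receptor gene ERS2 (AT1G04310) had 1.62 and 0.850 in the authors' deposited table, which is -0.93 as a log2 ratio. EBF2, an F-box protein that removes the ethylene factor EIN3, was lower by a log2 ratio of -0.87. The other 3 receptors were not listed. In a list of 53 ethylene genes, repaired after the members were seen, 8 were listed, 4 lower (50%, against 44.4% of all listed entries) and 4 higher. The higher ones included the ACC synthase genes ACS2 at 0.74 and ACS5 at 1.16, whose enzymes make the ethylene precursor.

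Genes of a protein phosphatase, a protein kinase, a U-box protein and an F-box protein were also among the regulators. AT4G32950, a protein phosphatase 2C, had 12.7 and 3.78 in the authors' deposited table, which left 29.8%, the lowest share in this group. CIPK13 (AT2G34180), a kinase activated by calcium sensors of the CBL family, had 67.8 and 30.0 in the authors' deposited table. PUB19 (AT1G60190), a U-box protein with a role in salt inhibition of germination, had 4.16 and 1.90 in the authors' deposited table. The F-box gene AT3G23880 had 3.40 and 1.55 in the authors' deposited table.

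Stress regulators were also in the group. OXS3 (AT5G56550), which confers tolerance of heavy metals and oxidative stress, had 28.0 and 11.2 in the authors' deposited table. OZF1 (AT2G19810), a zinc finger protein of the oxidative stress response, had 3.48 and 1.65 in the authors' deposited table. AT1G71520, a DREB-type factor of subgroup A-5, had 7.11 and 2.66 in the authors' deposited table. The bHLH-related gene P1R1 (AT5G57780) had 5.13 and 2.47 in the authors' deposited table. The DnaJ chaperone gene J11 (AT4G36040) had 24.1 and 11.9, and the receptor kinase-related gene AT3G22060 had 20.3 and 8.86 in the authors' deposited table. These 3 kept between 43.7% and 49.4% of the wild-type value.

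Enzymes and small proteins of specialised metabolism and defence made up 11 members. GSTL1 (AT5G02780), a lambda class glutathione transferase with thiol transferase activity, had 2.76 in the wild type and 0.860 in hb13 in the authors' deposited table, at a q-value of 0.0483. AT5G37990, an S-adenosylmethionine-dependent methyltransferase, had 6.67 and 2.27 in the authors' deposited table. TRI (AT2G29330), annotated as a tropinone reductase, had 5.26 and 1.94 in the authors' deposited table. MES9 (AT4G37150), an esterase that cleaves methyl salicylate and methyl jasmonate in vitro, had 5.58 and 2.30 in the authors' deposited table, with 41.2% left.

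TT7 (AT5G07990), the flavonoid 3'-hydroxylase that sets the balance of quercetin to kaempferol, had 28.0 and 13.02 in the authors' deposited table. Of 15 flavonoid genes, a list written after the members were seen, 4 were listed and all 4 were lower, beside 44.4% of all entries. The others were 4CL3, an entry enzyme, at a log2 ratio of -0.72, the chalcone isomerase gene TT5 at -0.45 and CHIL, an isomerase-like gene of the same family, at -0.43. Chalcone synthase (TT4) was not listed. An earlier list of 86 flavonoid and phenylpropanoid genes found by name had the same 4 lower and 3 higher, the dirigent-like gene AT3G13650 and 2 false matches by symbol, the chitinase gene CHI and the CRINKLY4-related gene CCR2. The UDP-glycosyltransferase gene AT5G17040 had 6.44 and 2.99 in the authors' deposited table. Of 132 glycosyltransferase genes 13 were listed, 7 lower (53.8%, against 44.4% of all listed entries) and 6 higher.

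Proteins of the polyketide cyclase and major latex protein fold appeared 3 times. AT4G23670 had 52.9 and 18.6 in the authors' deposited table, AT3G26460 had 8.89 and 3.23, and MLP328 (AT2G01520), which promotes vegetative growth and delays flowering, had 4.94 and 2.43. The jacalin-related lectin gene JAL22 (AT2G39310) had 3.25 and 1.49 in the authors' deposited table. It was 1 of 7 listed genes in a list of 51 jasmonate and wounding genes, of which 6 were lower (85.7%, against 44.4% of all listed entries). These 6 held 2 more jacalin-type lectins, JR1 at -0.74 and JAL33 at -0.57, and the jasmonate repressor gene JAZ3 at -0.54. The symbols and product descriptions of JAL22 and JAL33 name neither jasmonate nor wounding. The 85.7% therefore does not stand for jasmonate and wounding genes alone. The 1 higher gene was MYC2, the central transcription factor of jasmonate responses, with 29.95 in the wild type and 57.9 in hb13 in the authors' deposited table, a log2 ratio of 0.95. The berberine enzyme family gene AT5G44410 had 2.02 and 0.929 in the authors' deposited table, with 45.9% left.

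The remaining 18 entries were proteases, transport proteins, structural proteins and uncharacterized genes. The aspartyl protease gene AT5G19120 had 92.3 in the wild type and 45.2 in hb13 in the authors' deposited table, and the papain-type protease gene CP2 (AT4G11320) had 9.78 and 4.24. delta-ADR (AT1G48760), a subunit of the AP-3 adaptor complex that sorts cargo to the vacuole, had 26.9 and 13.2 in the authors' deposited table. AT3G48390, an MA3 domain protein, had the third lowest ratio of the 62, from 2.91 down to 0.764 in the authors' deposited table. That rank was lost with 1 added to both values, when its log2 ratio went from -1.93 to -1.15.

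A pair of glycine-rich protein genes, AT1G55990 and AT4G33610, which the annotation gives as each other's best match, had 15.1 and 6.52, and 18.5 and 9.15, in the authors' deposited table. AT3G22060 and the proline-rich protein gene AT3G22070 are adjacent and point towards each other, and kept similar shares, 43.7% and 42.8%. AT3G22070 had 28.8 and 12.3 in the authors' deposited table. The joint entry of AT4G25845 and AT4G25850, neighbours on the same strand of which the second encodes the oxysterol-binding protein ORP4B, had 6.43 and 2.84 in the authors' deposited table and cannot be divided between them. Genes with a family description included SBP2 (AT4G14040), a selenium-binding protein, at 4.07 and 1.95, and the aluminium-induced protein gene AT4G27450 at 4.94 and 2.30 in the authors' deposited table. The LURP-one-like gene AT3G14260 had 6.14 and 2.51, and the GRAM domain gene AT5G23360 had 4.97 and 2.37 in the authors' deposited table. AT2G16005, with an MD-2-related lipid recognition domain, had 6.43 and 3.02 in the authors' deposited table. AT2G47020, AT1G13480, AT3G45730, AT3G02555 and AT5G05250 made up the rest, and these 10 genes kept between 38.9% and 49.97% of the wild-type value. AT1G13480 had 11.2 and 5.23, and AT3G45730 had 8.05 and 3.13 in the authors' deposited table.

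Position in the genome was not used to choose the genes. The 62 entries name 63 loci, and chromosomes 1 to 5 hold 11, 10, 13, 12 and 17 of them in that order. These are 17.5%, 15.9%, 20.6%, 19.0% and 26.98%, against 26.9%, 16.7%, 20.2%, 15.3% and 20.9% of the 640 other listed loci. Among the 255 other lower loci the shares were 21.6%, 15.7%, 23.9%, 17.6% and 21.2%. A difference between chromosomes was not tested. A listed protein-coding neighbour was found for 5 of the 63 (7.94%), against 90 of 640 other listed loci (14.1%). Among the other lower loci it was found for 22 of 255 (8.63%), close to the share in the 63, and among loci at least doubled for 21 of 87 (24.1%). Another annotated gene overlapped 12 of the 63 (19.0%), against 129 of 640 (20.2%). The release factor gene AT2G47020 overlaps MIR408 on the opposite strand, and MIR408 had 2.09 in the wild type and 10.2 in hb13 in the authors' deposited table, while AT2G47020 had 7.75 and 3.78. The strand setting of the counting is not stated.

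Promoter sequence was not used by the ratio threshold either, but the loci set aside are not among the 63. A G-box was found in the windows of 11 of the 63 loci (17.5%), against 51 of 640 other listed loci (7.97%) and 2107 of 27443 protein-coding genes (7.68%). Among the other lower loci it was found in 26 of 255 (10.2%), and among the higher ones in 25 of 385 (6.49%). Among the 19 halved loci set aside it was found in 1 (5.26%), so leaving them out raised the share in the 63. The G-box was 1 of 8 motifs searched. The 11 were CCA1, ELIP1, PUB19, NUDT8, TRI, AT1G71520, AT2G16005, AT3G45730, AT5G05250, AT5G19120 and AT5G37990, so they came from several of the groups above. These shares are descriptions, and a match is not evidence of binding.

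The windows of 3 more G-box loci are shown, for the 2 loci with more than 1 match and for NUDT8, whose match lies closest to the start among the loci with 1. PUB19 lies on the plus strand at chr1:22198016-22198315, AT5G05250 on the minus strand at chr5:1558437-1558736 and NUDT8 on the plus strand at chr5:19183273-19183572. The matches in capitals start 126, 76 and 7 bases before the start in PUB19, 52 and 24 before it in AT5G05250 and 22 before it in NUDT8.
PUB19: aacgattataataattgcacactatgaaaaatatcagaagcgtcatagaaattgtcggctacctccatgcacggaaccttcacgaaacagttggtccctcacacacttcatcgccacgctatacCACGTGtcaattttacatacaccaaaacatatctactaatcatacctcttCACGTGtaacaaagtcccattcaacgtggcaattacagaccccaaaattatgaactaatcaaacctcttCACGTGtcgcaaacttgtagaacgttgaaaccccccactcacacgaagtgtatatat
AT5G05250: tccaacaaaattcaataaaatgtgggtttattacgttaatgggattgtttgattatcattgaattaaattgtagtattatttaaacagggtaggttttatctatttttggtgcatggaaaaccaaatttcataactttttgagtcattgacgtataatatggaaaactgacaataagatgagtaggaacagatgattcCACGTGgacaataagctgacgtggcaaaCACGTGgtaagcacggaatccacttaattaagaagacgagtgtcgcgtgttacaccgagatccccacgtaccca
NUDT8: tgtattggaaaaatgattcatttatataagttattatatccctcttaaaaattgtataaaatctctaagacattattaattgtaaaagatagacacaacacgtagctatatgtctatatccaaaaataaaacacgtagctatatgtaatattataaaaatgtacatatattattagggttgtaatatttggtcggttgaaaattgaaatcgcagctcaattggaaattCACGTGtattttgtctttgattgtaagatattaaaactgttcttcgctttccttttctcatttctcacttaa

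The whole HD-ZIP site, CAATNATTG with any base in the middle, was found in none of the 63 windows. It was found in 13 of 640 other listed loci (2.03%) and 294 of 27443 genes (1.07%). Its core, AATNATT, was found in 24 (38.1%), against 270 of 640 (42.2%) and 9264 of 27443 (33.8%). The W-box, TTGACC, was found in 12 (19.0%), against 79 of 640 (12.3%) and 3886 of 27443 (14.2%). An abscisic acid response core, ACGTGG, which can overlap a G-box, was found in 9 (14.3%), against 81 of 640 (12.7%) and 2704 of 27443 (9.85%), while the other lower loci had it in 46 of 255 (18.0%). The TATA box, TATAAA, was found in 41 (65.1%), against 405 of 640 (63.3%) and 52.1% of all genes. The TCP core, GGNCCC, was found in 7 (11.1%), against 62 of 640 (9.69%) and 8.68% of all genes. The evening element, AAAATATCT, chosen after the members were seen, was found in 1 (1.59%), against 18 of 640 (2.81%) and 2.82% of all genes. Both strands were searched, and windows of this length miss sites farther away.

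**Figure D4:**
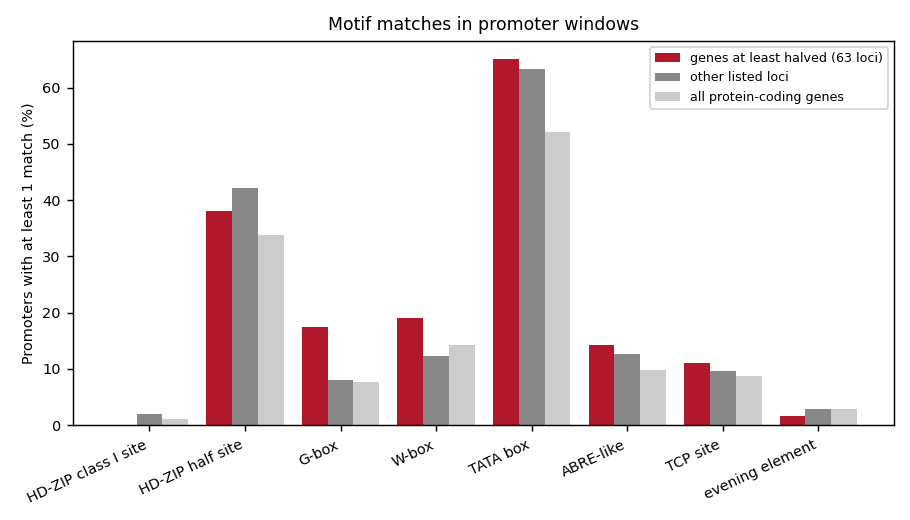
Percent of promoter windows of 300 bases with at least 1 match to each of 8 motifs on either strand, for the 63 loci (red), 640 other listed loci (dark grey) and all 27443 protein-coding genes (light grey). The G-box stands at 17.5% in the 63 loci against 7.97% and 7.68%. The motif labelled HD-ZIP class I site, CAATNATTG with any base in the middle, is at 0 in the 63 loci.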

How the data were processed

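RNA-seq of roots was compared between wild type and hb13, with 3 libraries each. The authors deposited 1 table of 708 entries with 1 expression value per genotype. These expression values are a signal summarised by the authors over the libraries of a genotype before they were deposited, per the file headers, and their unit is not given in the sources used here. The table also holds the authors' deposited log2 ratio of hb13 to wild type and their deposited q-value. TopHat2 2.0.13, Cufflinks 2.1.1, Cuffdiff and the build TAIR10 are named, with no role or order, in the submitters' processing notes. No value per library and no depth is given, so no interval, replicate spread or fit across genes could be computed and the values are described.

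Ratios were recomputed from the values of both genotypes, and differed from the deposited log2 values by at most 1.02e-05 on the log2 scale over 706 entries. The other 2 entries have a value of 0 in hb13, and both are among the loci set aside. The members and gene lists were chosen with earlier results of these data known. Of the lists, 33 were made by searching gene names and 10 were added after the members were seen, partly to repair false matches. By rule, every member with a symbol or family description is named, as are the 10 with the lowest ratio and the 5 with the highest wild-type value. The 5 nearest to the threshold on each side are named too, with the loci set aside left out.

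The table has no coordinates. Gene names, positions and promoter windows of 300 bases come from RefSeq TAIR10.1, whose loci matched 695 entries and 61 of the 62 members. The other member names 2 loci. Exon stretches of 100 bases were searched for elsewhere in the genome. The selection and the motif search were tested on simulated data. Python 3.11.15, pandas 2.3.3, NumPy 2.4.6 and matplotlib 3.10.9 were used. Alternatives varied the q-value, the lowest expression value, the pseudocount, the centring, the ratio threshold and the entries kept.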

Additional observations from a re-analysis of the deposited data

How the results depend on the processing

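The number of genes at least halved was 62. It was 30 with a mean value of at least 5, 32 with a pseudocount of 1, 34 with a ratio of at most 0.45 and 219 after centring log2 ratios on the median of the listed entries. That median was 0.45, and the table lists only entries at a q-value of at most 0.04996, so it is not a median over all expressed genes. The counts under the other 8 alternatives stayed within 1.5 times of 62, from 46 with a q-value under 0.01 to 89 with a ratio of at most 0.55. The median log2 ratio of -1.18 lay between -1.33 and -1.10 under the 12 alternatives, but each selects genes anew at a threshold, which keeps the median near it, so this range is no sign of stability. Among 124 values of single genes under a pseudocount of 1 or centring, 4 moved by more than 1.5 times, all with the pseudocount. They were CYP82C4 from -2.43 to -1.03, NAS4 from -2.24 to -1.61, AT3G48390 from -1.93 to -1.15 and GSTL1 from -1.68 to -1.02, each with a low value in hb13. Neither alternative can turn the direction of a decrease. Leaving out each replicate was not run, for lack of values per library. No paired analysis was possible because only 1 value per genotype is given. With no depth, the error of low values is unknown, and 32 of the 62 have a mean value under 5.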

Other observations

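Several groups of root genes had no member among the 62 while their listed genes were mostly higher in hb13, beside 44.4% lower over all listed entries. Of 6 listed cytokinin genes 0 were lower. The response regulator genes ARR4, ARR6, ARR7 and ARR9, which are induced by cytokinin and dampen its signal, were higher by log2 ratios of 0.92, 1.69, 1.68 and 0.60 in the authors' deposited table. CKX5, an enzyme that degrades cytokinin, was higher by 1.23 in the authors' deposited table. Of 5 listed gibberellin genes 0 were lower, and they held the biosynthesis genes GA20OX2 at 1.05 and GA3OX2 at 1.88 as well as the inactivating enzyme gene GA2OX8 at 2.30 in the authors' deposited table. GA2OX8 also rested on a low wild-type value, 0.796 in the authors' deposited table. Of 15 listed auxin genes 13 were higher. The 2 lower ones were LAX2 at -0.96, just outside the threshold, and AT2G33830 at -1.48. AT2G33830 was more than halved and is missing from the 62 only because it is among the loci set aside.

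Most listed cell wall genes were also higher, beside 44.4% lower over all listed entries. Of 12 listed expansin and xyloglucan endotransglucosylase genes, whose proteins loosen or remodel the wall, 10 were higher, up to EXPA12 at a log2 ratio of 2.17 and XTH33 at 2.13 in the authors' deposited table. EXPA4 and XTH9 were lower, at -0.82 and -0.66. Of 14 listed genes matched by name to pectin enzymes or their inhibitors, 0 were lower. They include PGIP1, a polygalacturonase inhibiting protein and not an enzyme.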
